A study of Mus musculus with 17 samples.

Results

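The transcripts of the cytosolic ribosomal proteins were compared between antibody-secreting cells (ASCs) of young and aged mice. Members were all array probes whose gene symbol in the platform annotation begins with Rpl or Rps followed by a digit, a or p, without the Rps6k kinases, Rps19bp1 and pseudogenes. This rule, which uses no measured value, found 87 probes of 45281 on the array, for 63 genes. Of these, 53 probes (38 genes) belong to the large subunit and 34 probes (25 genes) to the small subunit.

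ASCs were sorted from the hind-leg bone marrow of Charles River mice and measured on Illumina MouseWG-6 v2 arrays, on which the brightness of a probe reports the level of its transcript. The young group held 9 samples from mice 6 to 8 weeks old and the aged group 6 samples from mice older than 17 months, on 17 arrays, since 2 of the young samples (3 and 4) had 2 arrays each. No genotype or treatment separated the groups, and strain and sex of the array mice are not given in the sources used here. The paper names a strain only for the mice of its PCR experiment on splenic B cells. Cells came from single or pooled mice, and which samples were pools is not stated. The paper names 9 young and 10 aged mice, which is more aged mice than aged samples. The number of mice behind a sample may therefore differ between the groups. An SD over samples may not be one over mice, and p-values measure the spread between these samples. The labels call the cells B cells. Of the plasma-cell markers, Jchain, Xbp1 and Mzb1 were detected in all samples, whereas the 3 probes of Sdc1, the gene of the plasma-cell surface marker CD138, were each detected in 1 to 3 young and 1 to 5 aged samples. Markers of neutrophils were detected too (10 of 10 genes in at least 7.5 samples, summed signal 24300 to 58600 in young and 23300 to 49200 in aged).

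A cytosolic ribosome is built from a small subunit, which holds the mRNA and reads its codons, and a large subunit, which joins amino acids and releases the growing chain through an exit tunnel. Each protein is needed once per ribosome, with the stalk proteins P1 and P2 as an exception, and the messages of nearly all of them begin with a terminal oligopyrimidine tract, a C followed by a run of pyrimidines, through which the mTOR kinase sets their translation as a group. ASCs secrete immunoglobulin at a high rate and depend on this machinery. Transcript levels, as measured here, do not report such control at translation.

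The shared sequence feature is shown for members that recur below, as 30 bases of the gene strand, with 10 before the annotated start of transcription and 20 from it on (RefSeq, GRCm38.p6). Capitals mark the tract, a C within 5 bases of the annotated start followed by at least 4 bases that are each C or T, and windows without capitals hold none there. Rps6, Rplp2, Rps23 and Rps27l were chosen as members of different roles, Rpl13a and Rpl27a for their long tracts, and Rplp0 and Rps12 as examples without a match. Rps27l has another annotated start, with a window at chr9:66946403-66946432 that holds no tract and is not shown.
Rps6 (chr4:86857348-86857377, minus strand): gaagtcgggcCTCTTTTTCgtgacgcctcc
Rplp2 (chr7:141447641-141447670, plus strand): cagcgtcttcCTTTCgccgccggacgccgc
Rpl13a (chr7:45128726-45128755, minus strand): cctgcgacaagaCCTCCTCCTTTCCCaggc
Rpl27a (chr7:109519185-109519214, plus strand): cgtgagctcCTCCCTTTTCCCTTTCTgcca
Rps23 (chr13:90923112-90923141, plus strand): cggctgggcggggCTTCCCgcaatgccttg
Rps27l (chr9:66946076-66946105, plus strand): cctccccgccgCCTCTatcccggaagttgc
Rplp0 (chr5:115559457-115559486, plus strand): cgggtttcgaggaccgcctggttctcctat
Rps12 (chr10:23787190-23787219, minus strand): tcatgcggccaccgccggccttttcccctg

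RefSeq promoter windows were matched for 53 of the 63 genes. In 25 of these 53 genes (47.2%) at least 1 window held a tract within 5 bases of the start, against 21.2% of all genes with a window, and by window the shares were 42.9% of 63 and 18.3% of 32851. With the C exactly at the annotated start, 9 of 53 genes matched (17%), against 3.01% of all genes. Large-subunit genes held the tract in 14 of 31 cases and small-subunit genes in 11 of 22. A missing match says only that these letters are not within 5 bases of the annotated start. In Rps12, for example, a pyrimidine run lies farther downstream within the window.

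The members' transcripts did not pass the test for a difference between ASCs of aged and young mice, in either subunit. Tested probes had to be above background in 7.5 or more of 15 samples and to vary 1.2-fold or more, which kept 73 member probes (57 genes, 44 large-subunit and 29 small-subunit probes) among 11073. None of the 73 reached an adjusted p under 0.05 from limma, while 1.38% of all tested probes did. At an unadjusted p under 0.05, 1 member was higher in aged ASCs (Rpl13a) and 0 were lower, against 8.81% and 5.27% of all tested probes. The t-test that the methods describe called 0 members, with or without adjustment. It was run on the 11073 probes kept here, which are fewer than the paper kept. At 0 member probes did the aged and young samples separate without overlap, as 0.659% of all tested probes did. Shares of 1.38% and 0.659% leave few or no probes in a set of 73. Neither the 0 calls nor the 0 separated probes therefore set the members apart.

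Over all tested probes, 117 were called higher in aged ASCs (1.06%) and 36 lower (0.325%). These counts were 82 and 7 after scaling each array to its 75th percentile instead of quantile normalization, and 61 and 3 without normalization. The members received 0 calls under each of these scalings.

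With quantile normalization the differences between the groups were small as well as not called. The median log2 fold change of the members was -0.025 there, 0.15 with the 75th percentile and 0.19 without normalization. Those of all tested probes were -0.011, 0.055 and 0.094. The log2 fold change, given throughout as aged minus young, was under 0.25 in size at 63 of 73 member probes (86.3%), compared with 63.7% of all tested probes. Its 95% confidence interval lay within a 1.5-fold change either way at 46 members (63%), compared with 43.4% of all tested probes, and within a 2-fold change at 71 (97.3%), compared with 86.5%. Rpl13a and 1 probe of Rplp0 were the 2 members whose intervals reached past 2-fold. The spread between samples of a group was close to that of other probes, with a median SD of 0.35 for members and 0.39 for all tested probes. In simulated data of the same size, a change of 1 on the log2 scale was called at 72% of changed probes and a change of 0.5 at 18%.

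**Figure D1:**
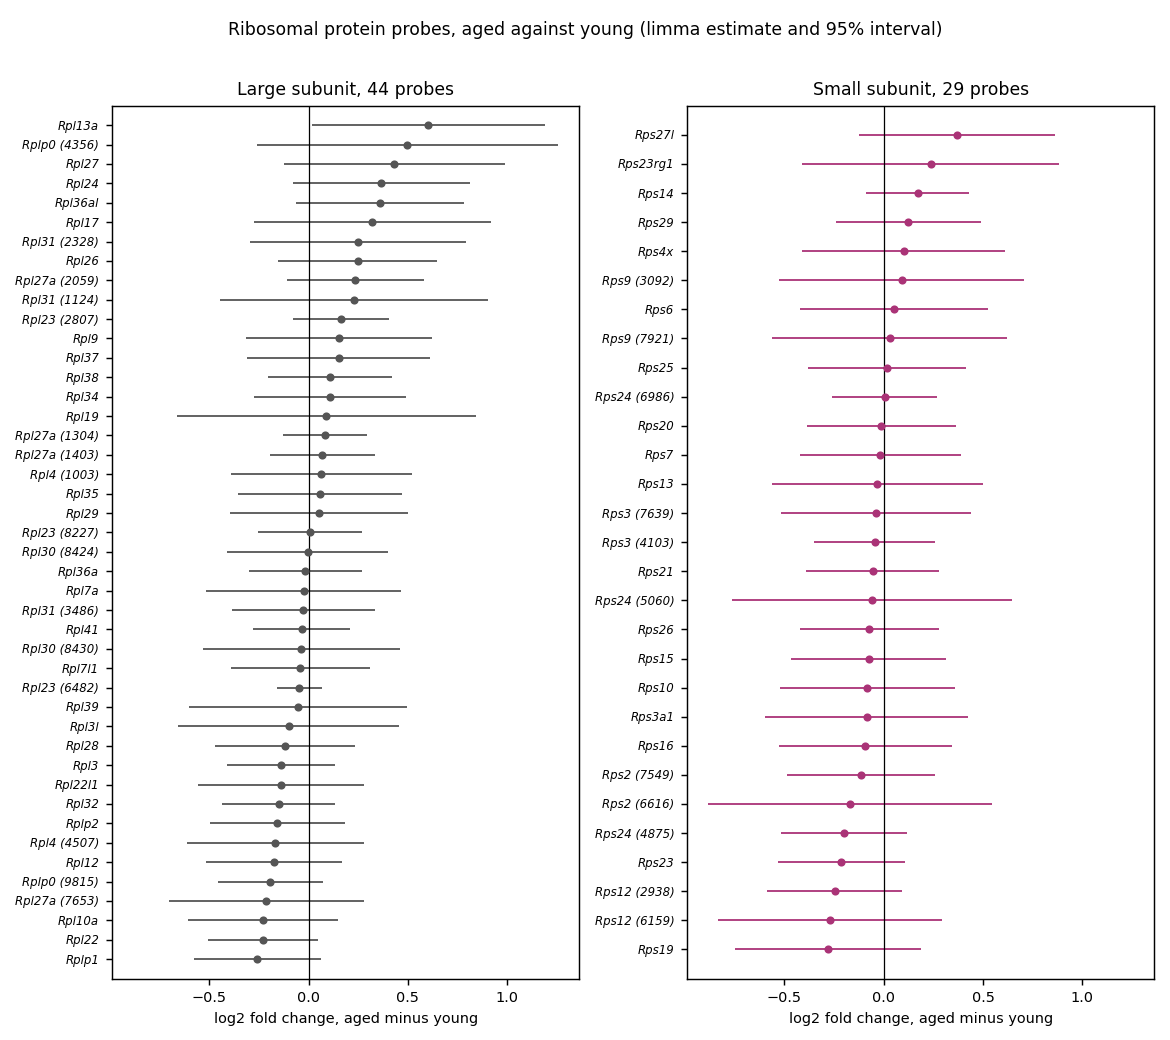
Log2 fold change (aged minus young, x axis) of each of the 73 tested ribosomal protein probes, ordered within the large (44 probes, left) and the small subunit (29 probes, right); points are limma estimates and bars 95% confidence intervals, and brackets give the last 4 digits of the probe where a gene has several. Every interval but that of Rpl13a includes 0, and estimates run from -0.28 (Rps19) to 0.60 (Rpl13a).

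Large and small subunits were then set side by side. Among large-subunit probes 22 means were higher and 22 lower in aged ASCs, with a median log2 fold change of 0.0018. Among small-subunit probes 10 were higher and 19 lower, with a median of -0.05, and the median of all tested probes was -0.011. The small-subunit median turned positive when arrays were scaled to their 75th percentile (0.14) or left unscaled (0.18), where the large-subunit medians were 0.16 and 0.19 and those of all tested probes 0.055 and 0.094. It also depended on single samples, and was -0.11 without young sample 2 and 0.05 without aged sample 2. Its direction thus changed with the scaling and with which of these samples was included.

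The stalk of the large subunit, which recruits the GTPases that drive elongation, consists of Rplp0, Rplp1 and Rplp2, with Rpl12 at its base. Of its 5 tested probes 4 had lower means in aged ASCs, with a median log2 fold change of -0.17, and 0 were called. Scaling each array to its 75th percentile left 2 of 5 lower (median 0.028) and no normalization left 1 of 5 lower (median 0.068). Rplp1 ranged from 12.48 to 13.30 (median 12.95) on the log2 scale in young and from 12.32 to 13.18 (median 12.62) in aged samples. Aged samples 1, 2 and 5 lay below every young sample and 1 of 6 above the young median, and the log2 fold change was -0.26 (standard error 0.15, adjusted p = 0.484 from limma). Rplp2 ranged from 11.22 to 12.15 (median 11.48) in young and from 11.12 to 11.61 (median 11.48) in aged samples, and the medians were alike, while young samples 1, 4 and 5 lay above every aged sample and aged samples 2 and 5 below every young one. Rpl12 ranged from 11.23 to 11.78 (median 11.65) in young and from 10.98 to 11.77 (median 11.42) in aged samples, with 2 aged samples below every young one.

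Rplp0, the protein that anchors P1 and P2 to the ribosome, had 2 tested probes with estimates of opposite sign, neither of them called. At one, ILMN_2744356, young samples ranged from 8.06 to 10.41 (median 8.73) and aged samples from 8.41 to 10.55 (median 9.30), for a log2 fold change of 0.50 (standard error 0.36). At the other, ILMN_1249815, they ranged from 7.94 to 8.70 (median 8.32) and from 7.79 to 8.53 (median 8.11), for a log2 fold change of -0.19 (standard error 0.13). Young sample 2 and aged sample 2 were the highest of their groups at the first probe, and aged sample 2 was the lowest at the other. Of the 11 member genes with more than 1 tested probe, 6 had probes of opposite sign (Rplp0, Rpl27a, Rpl31, Rpl4, Rpl23 and Rps24), and the estimates of Rplp0 lay farthest apart, by 0.69 on the log2 scale.

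Rpl13a, a structural protein of the large subunit that in human cells also takes part in silencing inflammatory messages, had the highest estimate. Its young samples ranged from 8.50 to 9.47 (median 8.82) and its aged samples from 8.34 to 10.62 (median 9.49). Of the aged samples, 5 of 6 lay above the young median and 1 below every young sample. The log2 fold change was 0.60 (standard error 0.28, 95% confidence interval 0.017 to 1.19, adjusted p = 0.339 from limma). Its highest value belonged to aged sample 2, and without young sample 2 and aged sample 2 the estimate was 0.37 (limma's adjusted p = 0.531).

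Proteins that line the peptide exit tunnel or its opening (Rpl4, Rpl17, Rpl19, Rpl22, Rpl26, Rpl31, Rpl35 and Rpl39) had 7 of 11 probe means higher and 4 lower in aged ASCs, with a median log2 fold change of 0.06 and 0 calls (medians 0.28 with the 75th percentile and 0.31 without normalization). Rpl22 lay at the lower end. Its young samples ranged from 7.98 to 8.87 (median 8.35) and its aged samples from 7.97 to 8.39 (median 8.18), for a log2 fold change of -0.23 (standard error 0.13). Rpl17 lay at the upper end, at 0.32 (standard error 0.29).

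Other large-subunit members with high estimates were Rpl27 and Rpl24. Rpl27 ranged from 9.11 to 10.60 (median 10.11) in young and from 9.54 to 10.89 (median 10.35) in aged samples, and its log2 fold change was 0.43 (standard error 0.27). Rpl24 ranged from 8.16 to 9.13 (median 8.50) in young and from 8.44 to 9.53 (median 8.87) in aged samples, and its log2 fold change was 0.37 (standard error 0.21). In both, 5 of 6 aged samples lay above the young median, and the ranges of the groups overlapped. Among low estimates, Rpl10a had 0 of 6 aged samples above the young median, but its aged range (10.46 to 10.92) lay inside the young one (10.42 to 11.38), and its log2 fold change was -0.23 (standard error 0.18). The 4 probes of Rpl27a gave -0.21, 0.07, 0.08 and 0.24.

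The mRNA channel and decoding side of the small subunit (Rps2, Rps3, Rps14, Rps15, Rps20, Rps23 and Rps26 among the tested) had 8 of 9 probe means lower in aged ASCs, with a median log2 fold change of -0.07 and 0 calls, but 2 of 9 were lower with the 75th percentile (median 0.10) and 0 of 9 without normalization (median 0.14). The exception under quantile normalization was Rps14, which ranged from 12.63 to 13.06 (median 12.91) in young and from 12.74 to 13.29 (median 13.03) in aged samples, for a log2 fold change of 0.17 (standard error 0.12). Rps23, whose product sits at the decoding centre, ranged from 11.61 to 12.09 (median 11.88) in young and from 11.31 to 12.05 (median 11.66) in aged samples. Its log2 fold change was -0.21 (standard error 0.15), and 2 of the 6 aged values were above the median of the young. Rps23rg1, a retrogene copied from Rps23, had the opposite sign, at 0.24 (standard error 0.31). Probe sequences were not available, so whether the probes of Rps23 and its retrogene share signal was not tested.

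Rps19, the gene most often mutated in human Diamond-Blackfan anemia, had the lowest estimate of all members. Its young samples ranged from 11.36 to 12.69 (median 12.48) and its aged samples from 11.14 to 12.41 (median 12.12). None of the 6 aged samples lay above the young median, while young sample 2 and aged sample 2 were the lowest of their groups. The log2 fold change was -0.28 (standard error 0.22, adjusted p = 0.633 from limma). Of the 13 tested probes (9 genes) for proteins mutated in that anemia, 6 had higher and 7 lower means in aged ASCs, with a median of -0.017 and 0 calls, and the median was 0.14 with the 75th percentile and 0.18 without normalization.

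Both probes of Rps12, a small-subunit protein, gave similar estimates. At ILMN_2956159 young samples ranged from 10.08 to 12.38 (median 11.67) and aged samples from 10.77 to 11.58 (median 11.48), and the log2 fold change was -0.27 (standard error 0.27). At ILMN_2542938 they ranged from 12.37 to 13.69 (median 13.35) and from 12.79 to 13.29 (median 12.92), and the log2 fold change was -0.25 (standard error 0.16). At both probes 0 of 6 aged samples lay above the young median, and young sample 2 lay below every other sample. Without young sample 2 and aged sample 2 the estimates were -0.34 and -0.32, with adjusted p-values of 0.351 and 0.205 from limma.

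Rps6, the substrate of the S6 kinases downstream of mTOR, ranged from 8.44 to 9.71 (median 9.09) in young and from 8.29 to 9.85 (median 9.11) in aged samples. The groups covered almost the same range, and the log2 fold change was 0.05 (standard error 0.23, 95% confidence interval -0.42 to 0.53). Rps29, a small-subunit protein with a zinc-binding fold, gave 0.12 (standard error 0.17).

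**Figure D2:**
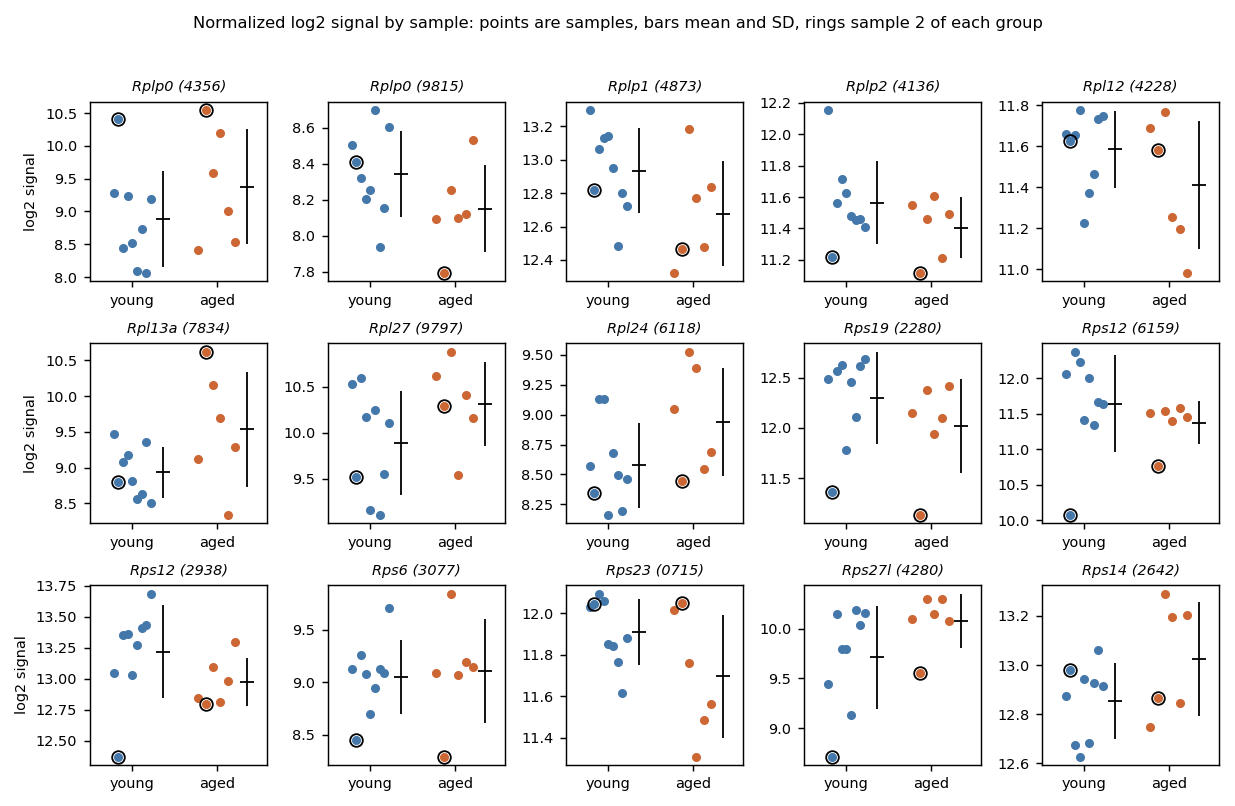
Normalized log2 signal (y axis, a scale of its own in each panel) of 15 ribosomal protein probes in 9 young (blue) and 6 aged (orange) samples. Points are samples, bars give mean and SD, rings mark sample 2 of each group, and brackets give the last 4 digits of the probe; at the first probe of Rplp0 both ringed samples are the highest of their groups, and at Rps19, Rps6 and the first probe of Rps12 the lowest.

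Several members are paralogs that can replace a core protein in the ribosome. Rps27l, the paralog of Rps27, ranged from 8.71 to 10.18 (median 9.80) in young and from 9.55 to 10.30 (median 10.13) in aged samples, and its log2 fold change was 0.37 (standard error 0.24), the highest of the small subunit. Rpl36al gave 0.36 (standard error 0.20) and its partner Rpl36a -0.016 (standard error 0.14). Rpl22l1 gave -0.14 beside -0.23 for Rpl22, and Rpl3l, known as a muscle paralog, gave -0.10 beside -0.14 for Rpl3. Rpl7l1 gave -0.04 (standard error 0.17). Of the members whose paralog was untested or has no probe, Rpl39 gave -0.05 (standard error 0.26) and the X-linked Rps4x 0.10 (standard error 0.24). None of the 6 tested paralog and retrogene probes was called. Leaving them out moved the medians to 0.031 for the large and -0.06 for the small subunit.

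On the brightest probe of each gene, tested genes with a tract within 5 bases of the annotated start had a median log2 fold change of 0.0059 (23 genes, from -0.21 to 0.60). Those with a window but no such tract had a median of -0.031 (25 genes, from -0.28 to 0.50). The 2 ranges overlapped.

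Of the 14 untested member probes, all were detected in fewer than 7.5 samples. They were both probes of Rpsa, the small-subunit protein also known as the laminin receptor, both probes of Rpl21, and single probes of Rpl6, Rpl7l1, Rpl14, Rpl23, Rpl28, Rpl29, Rpl39l, Rps13, Rps15a and Rps24. The most often detected was that of Rps13, in 4 young and 3 aged samples. The probe of Rpl6 was detected in 4 young and 0 aged samples. Of the tested members, 53 were detected in every sample. At ILMN_2946482, a probe for Rpl23, the signal was up to 100% of the highest on its array, so its level there may be a lower bound, and the other 2 tested probes of Rpl23 gave 0.0088 and 0.16.

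The members' clearest structure lay between samples, not between age groups. For each sample the deviation of every probe from its mean over the 15 samples was taken, and the median was formed for each subunit. The small-subunit median was -0.73 in young sample 2 and -0.48 in aged sample 2, and lay between -0.09 and 0.27 in the other 13. The large-subunit median was -0.17 and -0.011 in these 2 samples, within or just below the range of the other 13 (-0.15 to 0.21). The difference between the medians, small minus large, was thus -0.56 and -0.46, and -0.06 to 0.16 elsewhere. Both samples were singled out after their values were seen and belong to different age groups, and no test was made.

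**Figure D3:**
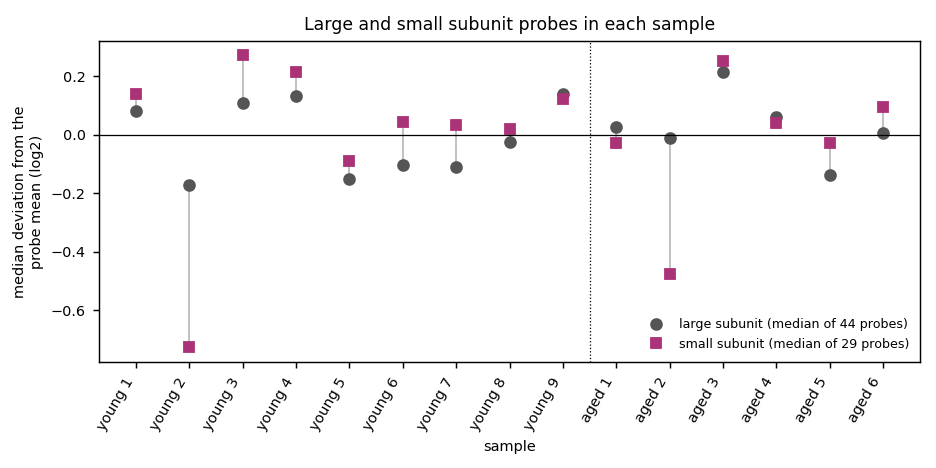
Median log2 deviation from the probe mean (y axis) of the 44 large-subunit (circles) and 29 small-subunit probes (squares) in each of 9 young and 6 aged samples (x axis), with a line joining both in each sample. Young sample 2 and aged sample 2 have small-subunit medians of -0.73 and -0.48, and all others lie between -0.09 and 0.27.

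The low values were spread unevenly over the small subunit. Young sample 2 and aged sample 2 were singled out by their low small-subunit medians. A high share of low small-subunit probes in them follows from that choice. In both samples 11 of 29 small-subunit probes (37.9%) lay more than 0.5 below their mean, against 4 of 44 large-subunit probes (9.09%) and 7.25% of all tested probes, or 11.9% of those with a mean log2 signal of at least 9. These were the probes of Rps3a1, Rps6, Rps16, Rps19 and Rps23rg1, both of Rps9, and 1 each of Rps2, Rps3, Rps12 and Rps24, and in the large subunit 1 each of Rpl4, Rpl19, Rpl27a and Rpl30. At its 2 probes Rps9 deviated by -1.0 and -0.95 in young sample 2 and by -1.32 and -1.19 in aged sample 2. By contrast, Rps23, Rps25 and Rps20 lay above their means in both samples, Rps23 by 0.22 and 0.22. Probes of 1 gene did not always deviate together, since Rps3 deviated by -0.85 and -0.88 at one probe and by -0.07 and -0.20 at the other, and 2 probes of Rps24 deviated by 0.67 and -1.0 in young sample 2. Rpl19, in the large subunit, deviated by -1.88 in young and -1.09 in aged sample 2. Young sample 5 was low at some of the same probes, by -0.72 and -1.20 at Rps9 and by -1.13 at Rpl19. In it 7 of 29 small-subunit probes lay more than 0.5 below their mean, against 18 in young sample 2 and 13 in aged sample 2.

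The deviations of young sample 2 and aged sample 2 were also examined over the whole array. In young sample 2, 21.7% of all tested probes lay more than 0.5 below their mean, the highest share of the 15, and in aged sample 2 17.3%, within the 4.99% to 18.1% of the other samples. Their numbers of detected probes (10956 and 11833) fell within those of the other samples (8998 to 17120). The part of the array-wide deviation in the low small-subunit values was not tested. Without both samples 0 members were called, and the medians were -0.0074 for the large and -0.023 for the small subunit.

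**Figure D4:**
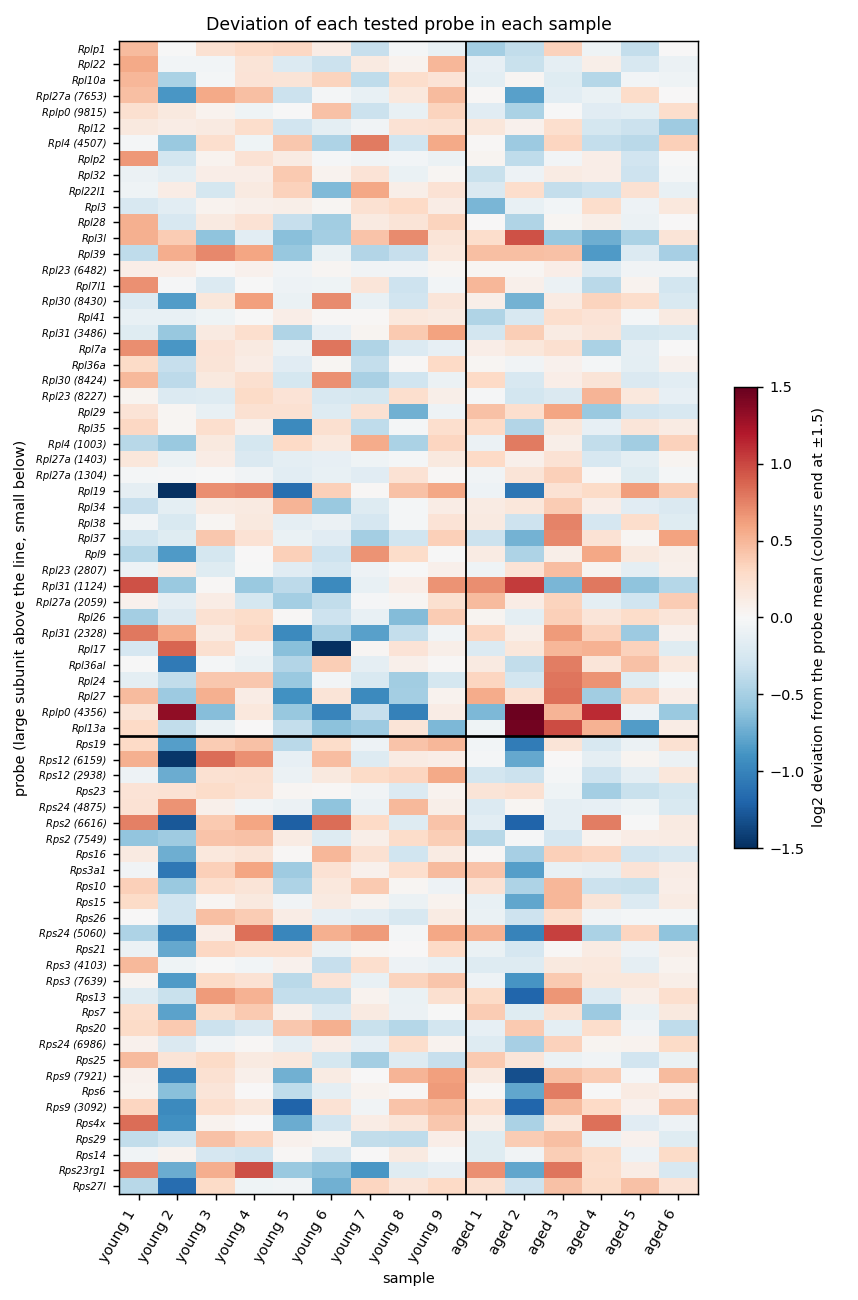
Log2 deviation of each of the 73 tested probes (rows) from its mean over the 15 samples (columns, young left and aged right), with large-subunit probes above the horizontal line and small-subunit probes below it, each ordered by log2 fold change from lowest to highest. Red is above and blue below the mean, and colours end at 1.5. In the lower block the columns with the most low values are young sample 2 and aged sample 2, and young sample 5 is low in some of the same rows.

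Genes that act around the ribosome were described from lists of the translation machinery, on the brightest probe of each gene. Of 7 tested elongation factors and their partners, 5 had higher and 2 lower means in aged ASCs, with a median log2 fold change of 0.04 and 0 calls (7 of 7 higher with the 75th percentile or without normalization). Eif5a, which helps peptide bonds form at difficult sites, gave -0.22 (standard error 0.15), and Eef1g, a subunit of the factor that reloads eEF1A, 0.20 (standard error 0.16).

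Of 22 tested initiation factors 9 had higher and 13 lower means, with a median of -0.03 and 0 calls, and with the 75th percentile or without normalization 13 were higher and 9 lower (medians 0.10 and 0.14). Eif5, which triggers GTP hydrolysis at the start codon, gave 0.58 (standard error 0.23, adjusted p = 0.251 from limma), and Eif4g2, a scaffold of cap-independent initiation, -0.53 (standard error 0.23, adjusted p = 0.301 from limma). Of 13 tested genes that link mTOR to the ribosome, 8 had higher and 5 lower means, with a median of 0.06 and 0 calls. Among them Larp1, which binds the terminal oligopyrimidine tract, gave -0.44 (standard error 0.23) and Tsc1, a brake on mTOR, 0.69 (standard error 0.36).

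Ribosome biogenesis had 38 tested genes, 15 with higher and 23 with lower means, a median log2 fold change of -0.08 and 0 calls, and the median was 0.0095 with the 75th percentile and 0.05 without normalization. At an unadjusted p under 0.05, 2 of these 38 genes were higher and 4 lower, and over all tested probes the shares were 8.81% and 5.27%. Counts this small do not set the list apart from those shares. Tsr1, a factor that matures the small subunit, ranged from 7.92 to 8.98 (median 8.40) in young and from 9.01 to 9.25 (median 9.11) in aged samples. All 6 aged samples thus lay above every young one, and the groups likewise did not overlap at 0.659% of all tested probes. Tsr1 was named for its small p within this list, so such a separation follows in part from that choice. Its log2 fold change was 0.64 (standard error 0.19, adjusted p = 0.0962 from limma). Ltv1, another small-subunit maturation factor, gave 0.66 (standard error 0.24, adjusted p = 0.185 from limma). Npm1, the abundant nucleolar protein nucleophosmin, ranged from 10.75 to 11.88 (median 11.52) in young and from 10.76 to 11.23 (median 10.92) in aged samples, so that 0 of 6 aged values exceeded the young median. Its log2 fold change was -0.48 (standard error 0.19, adjusted p = 0.225 from limma), and Wdr43 gave -0.50 (standard error 0.21). Without young sample 2 and aged sample 2, 1 gene of this list, Dkc1, which encodes the pseudouridine synthase dyskerin, was called, at -0.71 (limma's adjusted p = 0.0243).

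Cell-type markers were examined in the same samples. All 8 tested ASC markers had higher means in aged samples and 2 were called. Markers of precursor B cells had lower means at 6 of 7 tested genes, 4 of them called, and their summed signal was 5160 to 10500 in young and 3450 to 4370 in aged samples. Markers of dividing cells had lower means at 6 of 6 tested genes, 1 of them called. The other 6 lists had 0 calls, among them neutrophil markers with lower means at 8 of 10 tested genes (median -0.33) and basophil and mast cell markers at 4 of 4 (median -0.48). Fewer cells of a type and less RNA per cell cannot be told apart in such bulk samples, and the part of cell composition in the members' values was not tested.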

How the data were processed

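Bone marrow ASCs of 9 young and 6 aged samples were measured on 17 arrays. The authors deposited 1 intensity value for each probe and array without normalization, a detection p-value beside it, and quantile normalized intensity values for some of the probes. Amplified cDNA from total RNA was hybridized. The scanner software is not given in the sources used here. The number of columns left unused was 0.

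Between-array quantile normalization used limma (version 3.58.1, R 4.3.3), signals were log2 transformed and the repeat arrays of young samples 3 and 4 were averaged. The 11073 probes kept had a detection p-value under 0.05 in 7.5 samples or more and a range of 1.2-fold or more. The groups were compared by limma's moderated test (lmFit, then eBayes with trend), two-sided, and p-values were adjusted after Benjamini and Hochberg over all probes tested, at a threshold of 0.05. Intervals are 95% confidence intervals. The annotation names 1 gene for 20873 probes and several for 9, and 24399 probes are not listed in it, so members among these are not analysed here. Of the core genes, Rpl5, Rpl11, Rpl10, Rps27, Rps27a, Fau and Rack1 have no probe named in it. Version 1.17.8 of data.table read the files, and matplotlib 3.10.9 drew the figures.

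The members and the lists of translation genes, roles and markers were chosen with earlier results of these data known. Genes named were the 4 highest and 4 lowest probes of each subunit, genes of the stalk, Rps6, Rps19, Rpl13a, paralog pairs, other probes of these genes, and up to 4 genes with the smallest p in each other list. Rpl17 and Rpl23, the genes named for single samples, and Dkc1 were added after their values were seen. In simulated data on 11073 probes with 50 changed at each size, 18% of changes of 0.5, 72% of 1, 90% of 1.5 and 98% of 2 on the log2 scale were called, with 4 false calls. Alternatives in scaling, filter, arrays, variance model, test, samples and probe choice were tried. The number of arrays limits the precision of all values.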

Additional observations from a re-analysis of the deposited data

Results flagged for a closer look

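Single samples far from the rest of their group were looked for in 100 sets of values (the named probes and the subunit medians, in each age group), and 14 were found. For a single set, chance gives about 1 in 20. The sets are not independent, since they share samples, genes and the small-subunit median, so the 14 cannot be judged against that rate. Of the 14, 9 belong to young sample 2 or aged sample 2.

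In young sample 2 the small-subunit median deviation was -0.73, with the nearest other young sample at -0.09, and the small-minus-large difference was -0.56 (nearest -0.017). In aged sample 2 the small-minus-large difference was -0.46 (nearest -0.06). Rps12 was low in both, at 10.08 (nearest 11.34) and 12.37 (nearest 13.03) on the log2 scale at its 2 probes in young sample 2, and at 10.77 (nearest 11.41) at the first of them in aged sample 2. Rps19 was at 11.14 (nearest 11.94) and Rps27l at 9.55 (nearest 10.08) in aged sample 2. Tpt1 was at 9.96 (nearest 10.48) in young sample 2.

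Values far from the rest in other samples were those of Rpl7l1 in young sample 1 (9.18, nearest 8.68) and Rpl27a in young sample 8 (13.94, nearest 13.74 at ILMN_2641304), both high. Eef1d was low in young sample 5 (10.0004, nearest 11.27) and in aged sample 6 (11.14, nearest 11.73), and Larp1 was high in aged sample 4 (12.01, nearest 10.94).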

How the results depend on the processing

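Members received 0 calls in each alternative that was run, with 0 to 3 at an unadjusted p under 0.05, and their smallest adjusted p ranged from 0.138 to 0.588. When each sample was left out in turn, the median log2 fold change lay between -0.037 and 0.06 for the large and between -0.11 and 0.05 for the small subunit.

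The counts over all probes moved more. Leaving out single samples gave 30 to 253 probes higher and 10 to 99 lower in aged ASCs, the lowest counts without aged sample 3 and the highest without aged sample 2 (higher) and young sample 2 (lower). Leaving out both samples numbered 2, chosen after seeing the data, gave 297 and 137, with 1 call in ribosome biogenesis. Without the filter on dim probes 38 were higher and 7 lower. Requiring detection in every sample gave 56 lower and so did leaving out the intensity trend. The methods' t-test with Benjamini-Hochberg adjustment gave 66 higher, and its 1492 probes at an unadjusted p under 0.05 held 0 members. Arrays of young samples 3 and 4 differed from each other by an SD of 0.43 to 0.50 over all tested probes, repeat arrays by 0.46 and 0.48, and other pairs within a group by 0.45 or more. Counted as 1 sample, also chosen after seeing the data, they left 21 lower.

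Scaling set the direction of small differences. With the 75th percentile the large-subunit median was 0.16, that of elongation factors 0.31, and 7 probes were called lower. Rps12 (ILMN_2542938) turned to 0.0090, Rps23 to 0.014, Rplp2 to 0.044, Rpl12 to 0.028, Rpl3 to 0.083, Rpl7l1 to 0.025, Rpl36a to 0.27 and Rpl39 to 0.15. Without normalization the large-subunit median was 0.19, elongation 0.35 and initiation factors 0.14, and 61 and 3 probes were called. Rps19 turned to 0.018, Rps12 (ILMN_2542938) to 0.048, Rps23 to 0.054, Rplp1 to 0.020, Rplp2 to 0.083, Rpl12 to 0.068, Rpl3 to 0.12, Rpl3l to 0.0092, Rpl7l1 to 0.065, Rpl36a to 0.31 and Rpl39 to 0.18. Rpl36a also turned with cyclic loess (0.087, added after seeing the data), with the first arrays of young samples 3 and 4 (0.00084) and with these samples as 1 (0.0030, where Rpl39 gave 0.026). Leaving out single samples gave Rps6 -0.10 to 0.22, Rps4x -0.053 to 0.21, Rpl3l -0.30 to 0.034, Rpl7l1 -0.15 to 0.042, Rpl36a -0.061 to 0.020 and Rpl39 -0.15 to 0.11. Values that changed sign had adjusted p-values from 0.795 to 1.00 from limma, and the cause was not tested.

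Sample numbers 1 to 6 occur in both groups. Deviations of same-numbered samples correlated at 0.18, 0.23, -0.09, -0.06, -0.10 and -0.020 over all tested probes and at 0.30, 0.63, 0.37, 0.02, -0.14 and 0.23 over the members. Not every pair was above 0.1 by either measure, so the numbers were not taken as pairs, and 2 of 6 aged samples correlated best with their own number. With the replicate block 47 probes were higher and 8 lower, 0 members were called, and Rpl3l turned to 0.10. The slide as a block was not run, since the deposited columns name no slide.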
